A study of Mus musculus with 7 samples.

Results

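The G2-M and mitotic genes are 33 named genes whose products carry a cell from the end of DNA replication through chromosome segregation to division. They were found by gene symbol among the probes that the platform annotation assigns to exactly 1 gene. Of the 33, 32 were measured, each by 1 probe, out of 19752 genes in all. Ccnb1 was not analysed here. The samples were 4 arrays of IL2-treated cells (replicates 1 to 4) and 3 arrays of untreated cells (replicates 2 to 4), all from spleens of male C57BL/6 mice aged 6 weeks. Cells labelled as natural killer (NK) cells, with the phenotype marker NK1.1, were enriched by EasySep negative selection, meant to remove other cell types. They were then kept in vitro for 8 h with interleukin 2 (IL2) at 250 U/ml or left untreated. Markers of other cell types, B cells among them, also gave signal, as described below. Which cells the RNA of the mitotic genes came from was not tested. RNA was measured on Affymetrix Mouse Gene 1.0 ST arrays, and all values below are log2 intensities. Whether replicates are separate mice or cultures is not in the labels, and the p-values therefore cover the spread among these arrays, which may be technical.

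Most genes of this group are silent in resting cells and are switched on together late in the cell cycle. In quiescent cells the DREAM complex holds them off, and in dividing cells the MuvB core of that complex joins B-MYB and then FOXM1 to activate them. CDK1 with its cyclins then drives the cell into mitosis, and the anaphase-promoting complex (APC/C) ends it by having cyclins and other proteins destroyed. NK cells in the spleen are mostly at rest, and IL2 is a growth factor for them.

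After 8 h with IL2, 0 of the 32 genes were called higher and 0 lower than in untreated cells. Over all genes tested, 2.08% were called higher and 0.901% lower (limma over all genes, Benjamini-Hochberg adjusted p under 0.05, 2.98% in either direction). At an unadjusted p under 0.05 there were also 0 of the 32, against 13.5% of all genes. The adjusted p-values of the 32 genes ran between 0.468 for Cdca8 and 0.995 for Plk1. The IL2 and untreated arrays were fully separated for 0 of the 32 genes, against 9.63% of all genes. In 26 of the 32 genes the log2 difference was below 0, against 54.5% of all genes, and its median was -0.20, against -0.01 over all genes. This median depended on single arrays: it was 0.01 without untreated replicate 4, -0.40 without untreated replicate 2, -0.13 without IL2 replicate 2 and -0.09 without IL2 replicate 1.

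**Figure D1:**
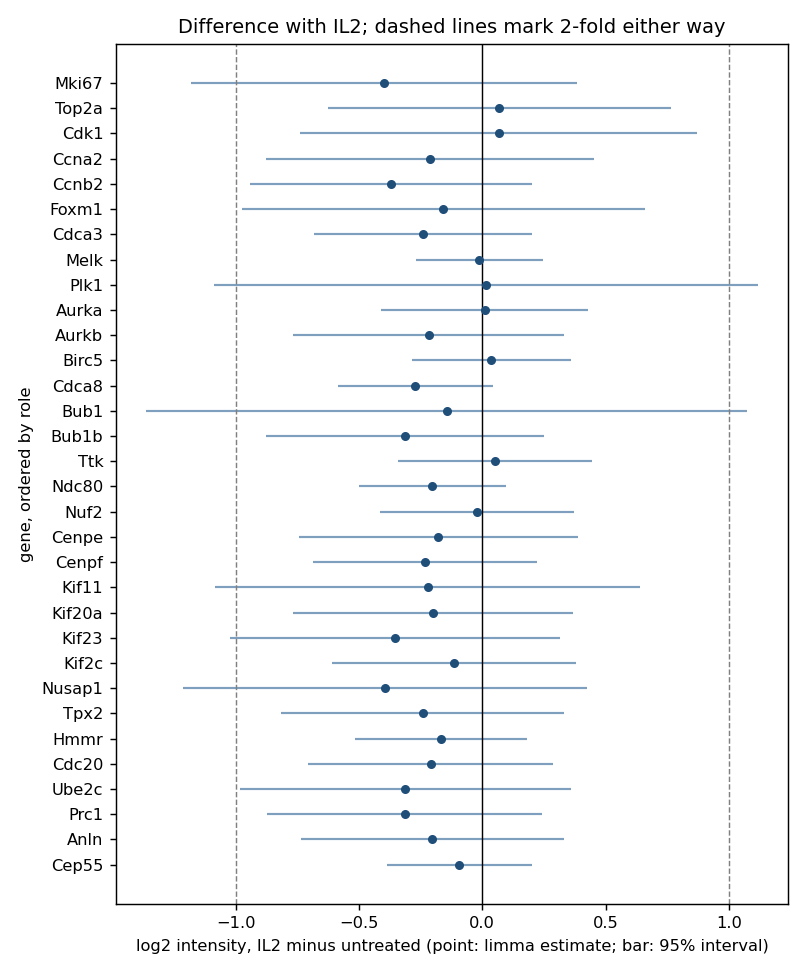
Log2 difference, IL2 minus untreated, for each of the 32 genes (x axis), with genes ordered by role from top to bottom. Points are limma estimates over 4 IL2 and 3 untreated arrays and bars are 95% intervals, all of which include 0, while 6 reach past the dashed lines at 2-fold.

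The precision of these estimates differed between genes. For 26 of the 32 genes the 95% interval of the difference lay within 2-fold either way, as it did for 93.6% of all genes, so that a change of 2-fold or more lay outside the interval for these genes. The intervals of Mki67, Plk1, Bub1, Kif11, Kif23 and Nusap1 reached past 2-fold. The median SE was 0.24 for the 32 genes and 0.12 for all genes. Signal was at or above the median of all genes for 18 of the 32, and differences for the other 14 rest on dimmer probes.

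Mki67, which encodes the proliferation marker Ki-67 that coats mitotic chromosomes, had 7.87, 8.30, 8.84 and 8.77 in IL2 replicates 1 to 4, against 8.12, 9.06 and 9.35 in untreated replicates 2 to 4. The groups overlapped, with IL2 replicate 1 lowest and untreated replicates 3 and 4 highest. The difference was -0.40 (SE 0.34, 95% interval -1.18 to 0.39, limma adjusted p = 0.716). Top2a, the DNA topoisomerase that untangles sister chromatids, averaged 7.44 ± 0.50 with IL2 and 7.37 ± 0.43 in untreated cells (SD, n = 4 and 3), a difference of 0.07 (SE 0.30).

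Among CDK1, its cyclins and the factors around them, 5 of 6 measured genes had a difference below 0. Ccnb2, a B-type cyclin that activates CDK1, had 8.85, 8.90, 9.17 and 9.14 in the IL2 arrays, against 8.73, 9.83 and 9.58 in the untreated arrays. Untreated replicates 3 and 4 lay above all IL2 arrays and untreated replicate 2 lay below them, and the difference was -0.37 (SE 0.25, limma adjusted p = 0.622). Cdk1, the kinase itself, had a difference of 0.07 (SE 0.35). Ccna2, the cyclin of S phase and early mitosis, had one of -0.21 (SE 0.29), Foxm1, the transcription factor of the G2-M programme, -0.16 (SE 0.35), Cdca3, which helps to degrade the CDK1 inhibitor WEE1, -0.24 (SE 0.19), and the kinase gene Melk -0.01 (SE 0.11). None of these passed the test.

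Among the kinases of mitosis and the spindle checkpoint, Bub1 and Plk1 varied most between arrays and Aurka and Ttk least. Plk1, the polo-like kinase needed for bipolar spindles and division, had 7.15, 7.64, 8.66 and 8.51 with IL2, against 7.11, 8.06 and 8.75 in untreated cells. Its difference of 0.01 had a 95% interval of -1.09 to 1.12. Bub1, a kinase of the checkpoint that delays anaphase until chromosomes are attached, had 5.80, 6.34, 7.27 and 7.44 with IL2, against 5.87, 6.97 and 7.73 in untreated cells. Its range of 1.93 over the 7 arrays was the widest of the 32, while its difference with IL2 was -0.14 (SE 0.52). The range was narrowest for Melk, at 0.36. The median range was 1.02 for the 32 genes and 0.52 for all genes. Bub1b, which encodes the checkpoint protein BUBR1, differed by -0.31 (SE 0.24), Ttk, the checkpoint kinase MPS1, by 0.05 (SE 0.17), and Aurka, the spindle pole kinase Aurora A, by 0.01 (SE 0.18).

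At the chromosomes, Aurkb, Birc5 and Cdca8, subunits of the passenger complex that corrects faulty attachments (Aurora B, survivin and borealin), had differences of -0.22, 0.04 and -0.27. The last had the lowest p of the 32 genes (limma adjusted p = 0.468). All 4 kinetochore genes had a difference below 0, between -0.23 and -0.02. These were Ndc80 and Nuf2, which form the microtubule-binding end of the NDC80 complex, the motor gene Cenpe and the large kinetochore protein gene Cenpf. The 4 kinesin genes Kif11 (the motor that pushes spindle poles apart), Kif20a and Kif23 (motors of the central spindle) and Kif2c (a microtubule depolymerase) had differences between -0.35 and -0.11. For the spindle assembly genes Nusap1, Tpx2 and Hmmr they lay between -0.39 and -0.17, for Cdc20 and Ube2c, the activator and the ubiquitin-conjugating enzyme of the APC/C, at -0.21 and -0.31, and for the cytokinesis genes Prc1, Anln and Cep55 between -0.31 and -0.09. None of these passed the test.

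The arrays also differ in how they are titled: the titles of replicates 3 and 4 in both groups give the 8 h, and those of replicates 1 and 2 do not. The labels do not say what lies behind the difference, and this comparison was chosen after the values had been seen. In the fit with both treatment and title style, 28 of the 32 genes were higher in the arrays whose titles give the time at an unadjusted p under 0.05, and 0 were lower. Over all genes these shares were 8.61% and 2.16%. No member passed an adjusted p of 0.05 for this difference (lowest limma adjusted p = 0.122, Kif23), as did 0.0203% of all genes for higher and 0.00506% for lower values. The difference was above 0 in 31 of the 32 genes, against 67.4% of all genes. Its median was 0.55 over the 32 genes, or 1.47-fold, and 0.07 over all genes. For 29 of the 32 genes all 4 arrays that give the time lay above all 3 that do not, as they did for 4.84% of all genes, and for 0 they all lay below, against 0.932% of all genes. The exceptions were Melk, Ndc80 and Cep55. The 32 genes share the same 7 arrays, so that their agreement is not independent evidence from gene to gene.

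**Figure D2:**
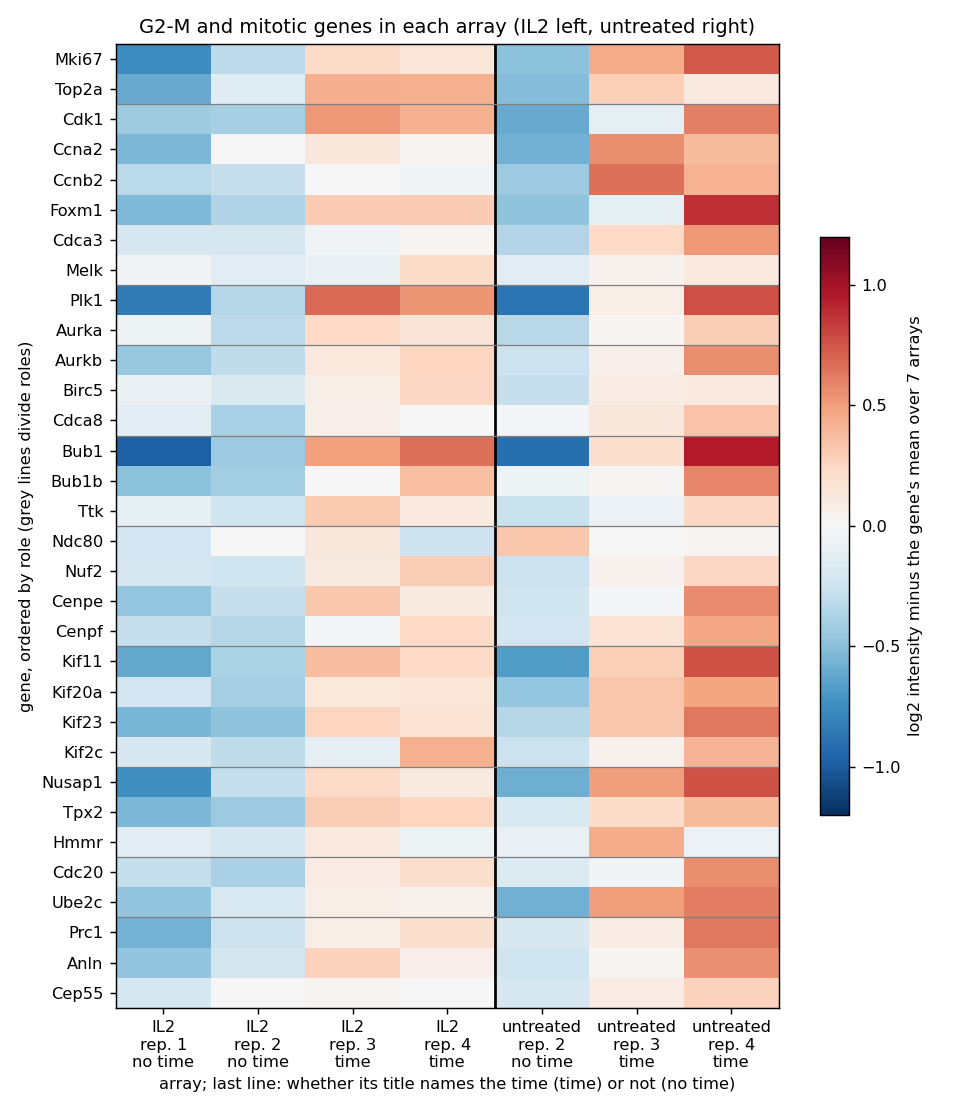
Log2 intensity minus each gene's mean over the 7 arrays (colour), for the 32 genes in rows ordered by role and the arrays in columns, IL2 left of the black line and untreated right of it. IL2 replicates 1 and 2 and untreated replicate 2 are blue in most rows and the other 4 arrays red. Of the 32 genes, 22 had their highest value in untreated replicate 4, which also had the highest median over all genes. The share of all genes with their highest value there was not counted.

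The mean over the 32 genes was 6.65, 6.77, 7.23 and 7.24 in IL2 replicates 1 to 4, against 6.71, 7.22 and 7.51 in untreated replicates 2 to 4. Untreated replicate 4 was thus highest, IL2 replicates 3 and 4 and untreated replicate 3 were close together, and the other 3 arrays were lowest. For 24 of the 32 genes untreated replicate 4 lay above every IL2 array. The share of all genes for which it did was not counted, so this count does not set these genes apart from others. The median over all genes was also highest in untreated replicate 4, at 6.98, against 6.87 to 6.93 in the other arrays. For 31 of the 32 genes the arrays that give the time were higher both among the IL2 arrays and among the untreated arrays, as for 36.2% of all genes. Bub1 had the largest difference by title style, at 1.36 (SE 0.21, limma adjusted p = 0.157), followed by Plk1 at 1.23 (SE 0.19), Kif11 at 0.96 (SE 0.15) and Nusap1 at 0.89 (SE 0.16). Kif11 had 7.13, 7.37, 8.12 and 7.99 with IL2, against 7.07, 8.04 and 8.52 in untreated cells. Ndc80 was the 1 gene of the 32 with a negative value, -0.09 (SE 0.13), and had 6.25, 6.47, 6.61 and 6.23 with IL2, against 6.80, 6.47 and 6.51 in untreated cells.

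**Figure D3:**
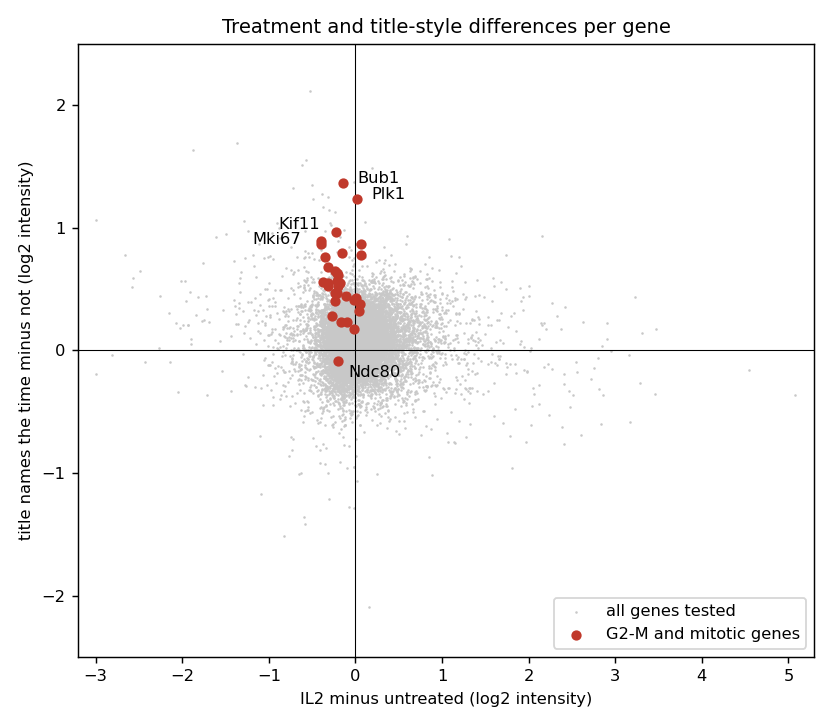
Log2 difference of IL2 minus untreated (x axis) and of arrays whose titles give the time minus those whose titles do not (y axis), for 19752 genes in grey and the 32 G2-M and mitotic genes in red. The red points lie between -0.40 and 0.07 across and between -0.09 and 1.36 upwards.

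Treatment was compared again within the title styles. Among the 4 arrays whose titles give the time, 24 of the 32 genes had a difference below 0 (52.5% of all genes), with a median of -0.12. At an unadjusted p under 0.05, 7 genes were lower with IL2, namely Mki67, Ccna2, Ccnb2, Cdca3, Kif20a, Nusap1 and Ube2c. As 0 of the 32 were higher at that p, their share in either direction was close to the 21.4% of all genes. The share of all genes that were lower at that p was not counted. The adjusted threshold was passed by 0 of the 32, against 0.521% of all genes. Both IL2 arrays lay below both untreated arrays for 10 of the 32 genes, against 24.7% of all genes. The largest of these differences was in Ccnb2, at -0.55 (limma adjusted p = 0.134), with the lowest adjusted p in Ube2c, at -0.49 (limma adjusted p = 0.106). Among the 3 arrays whose titles do not give the time, of which 1 was untreated, 13 of the 32 genes lay below 0 (42.8% of all genes) and the median was 0.05. Of the 7 genes named above, Mki67 lay at -0.03 there. The others had the opposite sign to that in the arrays that give the time, from 0.07 (Nusap1) to 0.31 (Ccna2). With title style as a block over all arrays, the median was -0.11, 23 of the 32 genes lay below 0 (51.6% of all genes), and 0 were called, against 4.18% of all genes (limma adjusted p of the 32 between 0.346 and 0.975).

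Promoters are shown because DREAM and its MuvB successors reach these genes through a short promoter element, the cell cycle genes homology region (CHR), often beside CCAAT boxes bound by NF-Y. RefSeq promoter windows on GRCm38.p6, from 250 bases before to 50 after each start, were matched by symbol for 27 of the 32 genes. The letters TTTGAA, the commonest form of the CHR, were found on either strand in 21 of 27 (77.8%), against 20.2% of 27025 genes with a window. CCAAT was found on either strand in 19 of 27 (70.4%), against 41.1%. Both stood in the same window in 17 of 27 (63%), against 7.97%. In 19 of 27 (70.4%) TTTGAA lay in the last part of the window, from 50 bases before the start onwards, against 5.72% of all genes. A match is a run of letters and not a shown binding site, and other forms of the CHR were not searched. The windows of Bub1 (chr2:127831810-127832109, minus strand), Plk1 (chr7:122159185-122159484, plus strand) and Kif11 (chr19:37376132-37376431, plus strand), the genes with the largest difference by title style, and of Ndc80 (chr17:71526808-71527107, minus strand), the gene with the smallest, are given 5′ to 3′ on the gene's strand. Capitals mark CCAAT (or ATTGG) and TTTGAA (or TTCAAA).
Bub1: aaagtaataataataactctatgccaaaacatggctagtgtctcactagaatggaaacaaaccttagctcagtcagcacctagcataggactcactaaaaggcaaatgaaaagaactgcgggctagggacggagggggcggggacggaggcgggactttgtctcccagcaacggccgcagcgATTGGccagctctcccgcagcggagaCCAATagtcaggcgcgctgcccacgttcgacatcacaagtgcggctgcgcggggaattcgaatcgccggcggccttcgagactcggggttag
Plk1: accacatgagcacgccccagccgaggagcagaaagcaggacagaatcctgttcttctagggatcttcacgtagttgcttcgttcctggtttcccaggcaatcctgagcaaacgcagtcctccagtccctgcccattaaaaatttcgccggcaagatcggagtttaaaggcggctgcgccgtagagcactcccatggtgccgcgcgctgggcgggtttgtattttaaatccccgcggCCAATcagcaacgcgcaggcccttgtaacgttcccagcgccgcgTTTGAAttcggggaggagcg
Kif11: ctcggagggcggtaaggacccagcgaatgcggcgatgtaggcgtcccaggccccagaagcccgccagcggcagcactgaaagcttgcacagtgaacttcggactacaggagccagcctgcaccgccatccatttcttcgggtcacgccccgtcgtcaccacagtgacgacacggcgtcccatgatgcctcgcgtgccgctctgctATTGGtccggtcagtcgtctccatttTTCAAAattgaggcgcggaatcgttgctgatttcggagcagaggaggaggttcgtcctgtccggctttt
Ndc80: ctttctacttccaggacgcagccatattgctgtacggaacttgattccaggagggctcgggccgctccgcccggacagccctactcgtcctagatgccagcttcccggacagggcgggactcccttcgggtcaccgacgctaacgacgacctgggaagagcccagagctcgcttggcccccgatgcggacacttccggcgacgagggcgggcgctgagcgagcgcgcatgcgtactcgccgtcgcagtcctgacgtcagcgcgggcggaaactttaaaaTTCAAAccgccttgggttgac
The Plk1 window held CCAAT from 14 bases before the start and TTTGAA from base 31 after it. The Kif11 window held them, both on the opposite strand, from 45 and 19 bases before the start. In the Bub1 window CCAAT stood at 2 places and TTTGAA at 0, and in the Ndc80 window CCAAT stood at 0 places and TTTGAA at 1, from base 30 after the start.

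Markers of some cell types differed with IL2, and those of some differed by title style. Ncr1, the NK receptor NKp46, had 11.52, 11.44, 11.51 and 11.36 with IL2, against 9.46, 9.12 and 9.25 in untreated cells. The summed intensity of all 10 NK markers, of which Gzma and Ncr1 were brightest, was 14471 to 19142 with IL2, against 4907 to 8286 in untreated cells. Of the 10, 5 were called higher with IL2. Not called were Gzma (1.81, limma adjusted p = 0.0520), Klrk1 (1.05), Eomes (0.83), Klre1 (0.46) and Klrd1 (0.09, limma adjusted p = 0.912). That of 7 of 8 macrophage and monocyte markers (led by Lyz2 and Ccr2) was 3508 to 4986 with IL2, against 10739 to 11864 in untreated cells. Of the 7, 5 were called lower, while Ccr2 (-0.01, limma adjusted p = 0.994) and Fcgr1 (0.23, limma adjusted p = 0.609) were not. B cell markers (7 of 8 measured, led by Cd79b and Cd79a) summed to 13129 to 14713 with IL2, against 15647 to 17010 in untreated cells. Cd79b, at 12.04 to 12.49, and Cd79a, at 11.85 to 12.20, read above Ncr1 in every array. Intensities of different probes do not measure the share of a cell type. Plasma cell markers (7 of 7, led by Xbp1 and Mzb1) summed to 3681 to 4492 with IL2, against 3595 to 4616 in untreated cells, and progenitor and megakaryocyte markers (6 of 7, led by Kit and Gata2) to 1379 to 1876, against 1771 to 2154. T cell markers summed to 1650 to 2901 with IL2, against 1707 to 2761 in untreated cells. Neutrophil markers summed to 1988 to 4377, against 3840 to 6294, and 0 genes were called in either list. In bulk samples such as these fewer cells of a type and less RNA per cell cannot be told apart.

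By title style, Mpo, the myeloperoxidase of developing granulocytes, had 7.06, 7.32, 8.94 and 9.55 in IL2 replicates 1 to 4, against 7.27, 9.54 and 9.43 in untreated replicates 2 to 4. All arrays whose titles give the time lay above all others, and the fitted difference was 2.12 (SE 0.16, limma adjusted p = 0.0267). Of 8 neutrophil markers (led by Ltf and S100a8), 6 were higher by title style at an unadjusted p under 0.05 and 2 (Mpo and Camp) at an adjusted one. S100a8 (0.49) was not among the 6. The summed intensity of the 8 was 3925 to 6294 in the arrays that give the time, against 1988 to 3840 in the others. Cxcr2, a chemokine receptor of mature neutrophils in the same list, went the other way, at -1.28 (SE 0.26, limma adjusted p = 0.219). Of 8 T cell markers (led by Cd3e and Cd3g), 7 were higher at an unadjusted p under 0.05, the exception being Cd3g (0.25). Over all genes 8.61% were higher at that p. The T cell sums were 2276 to 2901, against 1650 to 1823 in the arrays that do not give the time. Cd4, the co-receptor of helper T cells, had 6.47, 6.24, 7.60 and 7.22 with IL2, against 6.36, 7.48 and 7.94 in untreated cells. Erythroid precursor markers (6 of 10 measured, led by Ermap and Epor) summed to 606 to 640, against 533 to 603. Progenitor and megakaryocyte markers summed to 1771 to 2154, against 1379 to 1874. Of the plasma cell markers 5 of 7 had a difference above 0, while Jchain, which joins antibody units, had -1.36 (SE 0.15, limma adjusted p = 0.0726). For 0 of 10 NK markers was the difference above 0 (median -0.45), with sums of 4907 to 15119, against 8286 to 19142. These sums span both treatments. Gzma (-0.96), Klrk1 (-0.67), Prf1 (-0.60), Klrb1c (-0.59) and Klre1 (-0.54) were lower at an unadjusted p under 0.05, as were 2.16% of all genes. None passed the adjusted threshold (lowest limma adjusted p = 0.189, Gzma). B cell markers had a difference above 0 in 3 of 7 (median -0.09), with sums of 14317 to 16557, against 13129 to 17010. Macrophage and monocyte markers had one in 6 of 7 (median 0.22), 0 of them at an unadjusted p under 0.05. Their sums were 4477 to 11180, against 3508 to 11864. The part of these cell types in the levels of the mitotic genes was not tested.

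**Figure D4:**
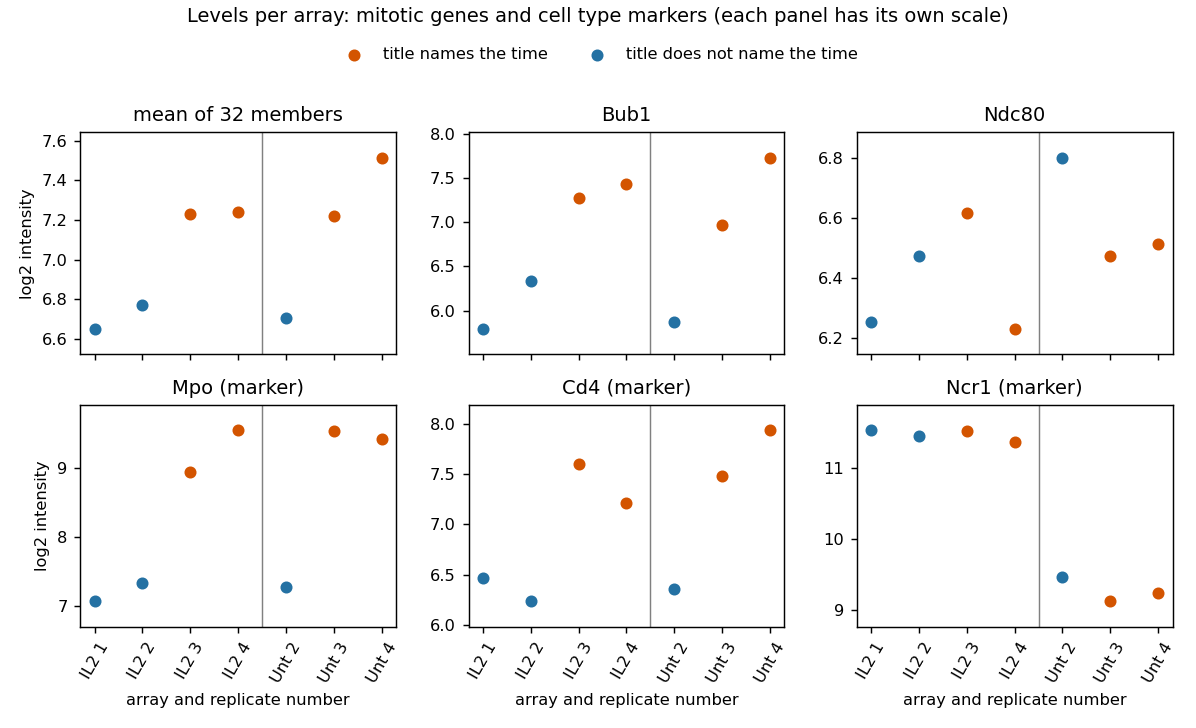
Log2 intensity per array (y axis, own scale in each panel) for the mean of the 32 genes, Bub1, Ndc80 and the markers Mpo, Cd4 and Ncr1, with the 4 IL2 arrays left of the line and the 3 untreated arrays right of it. Arrays whose titles give the time (orange) lie above the others (blue) for the mean, Bub1, Mpo and Cd4, while Ncr1 lies higher in the IL2 arrays.

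Other genes of the pathway were described in 7 lists with 155 measured genes, of which 1 was called higher and 1 lower with IL2. Cdc25b, a phosphatase that activates CDK1, averaged 8.02 ± 0.13 with IL2 and 8.93 ± 0.26 in untreated cells (SD, n = 4 and 3), a difference of -0.91 (SE 0.14, limma adjusted p = 0.0143). It was the 1 call among 19 genes of mitotic entry (median 0.02), where Cks2 (-0.33) and Plk4 (0.15) followed. Its call was lost without IL2 replicate 2, 3 or 4 or untreated replicate 2 or 4 (limma adjusted p between 0.0517 and 0.0705). Septin9, a septin of the division furrow and of the cell cortex between divisions, differed by 1.03 (SE 0.17, limma adjusted p = 0.0225) and was the 1 call among 16 cytokinesis genes (median 0.01), ahead of Cenpv (0.53) and Pdcd6ip (0.38). Its call was lost without IL2 replicate 2, 3 or 4 or untreated replicate 2 or 3 (limma adjusted p between 0.0659 and 0.0970).

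The other 5 of these lists held 0 calls in either direction. With title style as a block, however, 1 of the 21 genes of DREAM, MuvB and their partners was called higher and 2 lower with IL2. Among these 21 genes (median 0.09) the lowest p-values were those of Rb1 (-0.64, SE 0.14, limma adjusted p = 0.0597), the retinoblastoma gene, Rbl1 (0.78, SE 0.17), which encodes its relative p107, and Tfdp2 (-0.80, SE 0.20), a partner of E2F factors. Medians were 0.03 for 36 checkpoint and kinetochore genes (led by Cenpc1, Cenpq and Cenpa), -0.04 for 24 spindle motor and microtubule genes (Tubg1, Haus8 and Haus7), -0.07 for 22 condensin and cohesin genes (Smc1a, Smc4 and Nipbl) and 0.19 for 17 APC/C genes (Anapc15, Ube2s and Anapc1). By title style 38 of the 155 genes (24.5%) were higher at an unadjusted p under 0.05, beside 28 of the 32 (87.5%) and 8.61% of all genes.

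Earlier steps of the cycle stood as follows. Of 12 D cyclin, G1 kinase and CDK inhibitor genes, 11 were measured and 2 were called, both higher with IL2: Ccnd2 by 2.56 (SE 0.17, limma adjusted p = 0.000646) and Cdk6 by 1.43 (SE 0.14, limma adjusted p = 0.00244), which encode a D-type cyclin and its kinase, while Cdk4 had 0.69 (limma adjusted p = 0.0537). Of 39 G1-S and DNA replication genes (median 0.18, 6 of 39 below 0), 1 was called: Pcna, the replication clamp, which was 10.69 ± 0.04 with IL2 and 10.30 ± 0.06 in untreated cells (SD, n = 4 and 3), higher by 0.39 (SE 0.07, limma adjusted p = 0.0318). Its call was lost without any 1 array other than IL2 replicate 1 (limma adjusted p between 0.0534 and 0.124). Rfc4 (0.54) and Mcm2 (0.81), a clamp loader subunit and a subunit of the replicative helicase, did not pass the test (limma adjusted p = 0.0520 and 0.107).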

How the data were processed

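RNA was measured in 7 arrays (4 IL2, 3 untreated). The deposited values are intensities on a linear scale, 1 per transcript cluster. Per the submitters' processing notes, the tools were Affymetrix Power Tools and RMA, and per the labels the arrays are re-analysed samples of another series; versions, settings and which arrays were normalized together are not given in the sources used here. Log2 was taken with no offset. Of 24922 probes, 21425 had 1 gene symbol, 1399 several and 2098 none. The brightest single-symbol probe was kept per gene (19752 genes, no filter). Equal values in at least 2 arrays occurred in 2 members, and in 54.3% of all genes, which lowers the measured spread. Median intensity per array was 121 to 131, and the number of arrays limits the precision.

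The values were fitted in limma 3.58.1 (R 4.3.3) with treatment as factor and eBayes (7.68 degrees of freedom in total), and adjusted by Benjamini-Hochberg over all genes at a threshold of 0.05. Intervals are 95% intervals of the moderated fit. The fit was tested on simulated data of the same size. Replicate numbers 2, 3 and 4 occur in both groups. They were not taken as pairs, because no label says that a number marks a shared mouse or day. Deviations of same-numbered arrays correlated at 0.46, -0.30 and 0.31. Every member is named, as are the 3 genes with the lowest p of each other list and the 2 brightest markers of each cell type list. Members, lists, tests and alternatives were chosen with earlier results of these data known. Alternatives were replicate number or title style as a block, each title style alone, quantile normalization, centring, a signal filter, trended robust eBayes, the mean of a gene's probes, and leaving out each array. Promoter sequences are those of RefSeq.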

Additional observations from a re-analysis of the deposited data

Results flagged for a closer look

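In the 4 IL2 arrays, Cep55 had 1 value far from the others: IL2 replicate 1 had 5.57 and replicates 2 to 4 had 5.79, 5.82 and 5.79, so that the gap was 0.882 of the range, above Dixon's 95% critical value for 4 samples. This held for 1 of 32 genes, and 16.6% of all genes exceeded that value, where chance gives about 1 in 20. IL2 replicates 2 and 4 had equal values for Cep55, and equal values lower the measured spread.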

How the results depend on the processing

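With IL2, 0 of the 32 genes were called higher and 0 lower by limma under each of the 16 alternatives, 7 of which left out 1 array. The lowest adjusted p among 498 values was 0.0564, for Ccnb2 without untreated replicate 2 (-0.70). The sign of 63 of these uncalled values changed, and 8 of the 32 genes kept their sign throughout. The median of the 32 genes lay between -0.40 (without untreated replicate 2) and 0.01 (without untreated replicate 4) with 1 array left out, was -0.15 without untreated replicate 3, -0.13 without IL2 replicate 2 and -0.09 without IL2 replicate 1, and was 0.05 within the title style that lacks the time. With the replicate number as a block it was -0.09, with 0 calls. The SD between arrays of the median level of the 32 genes was 0.38. It includes the difference by title style and does not measure the spread of the IL2 difference. By title style, 23 to 28 of the 32 genes were higher at an unadjusted p under 0.05 with 1 array left out, while the share of all genes was 4.34% to 16.2%, and the median of the 32 lay between 0.46 and 0.61. That count was 28 after quantile normalization (7.85% of all genes), where 1 of the 32 passed the adjusted threshold among 30 genes in all, against 5 without it. With the signal filter it was 18 of the 18 genes at or above the median signal, against 8.89% of all genes kept by that filter.

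Over all genes, 410 higher and 178 lower calls became 694 and 577 after quantile normalization, 81 and 22 within the title style that gives the time, 0 and 0 within the other, and 134 to 517 and 65 to 152 with 1 array left out. Pcna lost its call with the replicate block (0.0884), after quantile normalization (0.118) and with trended robust eBayes (0.0786), and the calls of Cdc25b, Septin9 and Pcna ended within either title style alone. The calls of Ccnd2 and Cdk6 ended only within the style that lacks the time (0.358 and 0.380). In the DREAM and MuvB list 2 genes were lower with the replicate block, and 1 was higher and 2 lower with title style as a block, after quantile normalization and with the signal filter. D cyclin and G1 kinase calls were 4 with the replicate block and without IL2 replicate 1. The cause was not tested. For dim probes a difference may lie below what these arrays resolve.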

Other observations

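Across all 19752 genes, 5 passed the adjusted threshold for title style, 4 higher and 1 lower in the arrays whose titles give the time. They were named after their values were seen. Besides Mpo and Camp, these were Hmox1, the haem oxygenase that macrophages use to break down haem (1.64, SE 0.13, limma adjusted p = 0.0313), Msr1, a macrophage scavenger receptor (0.93, SE 0.07, limma adjusted p = 0.0267), and Slc15a2, a peptide transporter, which was lower (-2.09, SE 0.15, limma adjusted p = 0.0267). Slc15a2 had 8.05, 8.12, 6.37 and 5.94 in IL2 replicates 1 to 4, against 8.52, 6.01 and 6.35 in untreated replicates 2 to 4, so that the arrays whose titles give the time lay below all others in both groups. Of the 7 macrophage and monocyte markers measured, 6 had a difference by title style above 0 (median 0.22). However, 0 of them were higher at an unadjusted p under 0.05.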
